A study of Mus musculus with 18 samples.

Results

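The genes described here are 10 regulators of alternative splicing with known roles in muscle: the polypyrimidine tract binding genes Ptbp1 and Ptbp2, the muscleblind genes Mbnl1, Mbnl2 and Mbnl3, the Rbfox genes Rbfox1 and Rbfox2, the Celf genes Celf1 and Celf2, and Rbm24. They were chosen by symbol, and each matched 1 of the 55450 gene entries of the deposited count table. All 10 were among the 17912 genes that passed the filter on low counts.

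Polyadenylated RNA was sequenced from C2C12 cells, a mouse myoblast line that withdraws from the cell cycle and fuses into myotubes when serum is lowered. The question was what the amount of RNA from the imprinted Dlk1-Dio3 region means for the state of muscle cells. It compared 3 lines as myoblasts in 10% fetal bovine serum and as myotubes on day 3 in 2% horse serum, with 3 libraries (A, B and C) in each of the 6 groups. The control line (px) was a sorted population that had received the Cas9 vector pX458 alone. The Dlk1-Dio3 overexpressor (2-4) and Dlk1-Dio3 knockout (2-7) lines carry deletions made with paired guides in the proximal promoter region of Meg3 and were grown up from single cells. Each altered genotype is therefore 1 clone, set against a population, so that genotype and clone cannot be told apart. Nothing says whether the 3 libraries of a group came from separate cultures, so the p-values measure the spread between these libraries, which may be technical.

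Totals ran from 41544358 to 79140702 counts per library. Meg3, the gene next to the deletions, had 0 counts in all control libraries and in all libraries labelled knockout, and 5222 to 7763 counts in the overexpressor libraries. It separates the overexpressor from the other lines only, and the direction of every knockout comparison rests on the label. The summed level of 6 myotube markers was 188 to 534 CPM (counts scaled to library size) in control and overexpressor myoblasts and 15180 to 40810 CPM in myotubes, but already 9819 to 12640 CPM in the knockout myoblasts. The summed level of 6 proliferation genes was 939.8 to 1325 CPM in myoblasts and 102 to 242 CPM in myotubes. Of 6 neuronal markers, Elavl4 and Snap25 were at or near 0 throughout, while the sum of all 6 was 679 to 721 CPM in overexpressor myoblasts and at most 142 CPM in any other group. Most of that sum was Stmn2 (mean 490 CPM) and Tubb3 (190 CPM), with Map2 at 13.6 CPM. Syt1 went the other way, at 0 in overexpressor myoblasts and a mean of 0.88 CPM in control myoblasts. Fibroblast, adipocyte, endothelial and leukocyte marker sums did not exceed 83.2, 41.2, 0.559 and 1.80 CPM. Whether these markers bear on the levels below was not tested, and in bulk RNA more cells of a kind cannot be told apart from more RNA per cell.

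Splicing regulators of this kind bind short motifs in the pre-mRNA and, by their position, favour inclusion or skipping of nearby exons. During muscle differentiation PTB proteins, which repress many muscle exons, give way to MBNL, RBFOX and RBM24 proteins, which promote the muscle patterns, while CELF and MBNL proteins act on many of the same exons in opposite directions. Much of this control is known to act on protein amount and localisation, and gene counts measure neither these nor the splicing itself.

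Levels in CPM are counts scaled to library sizes with TMM factors, and levels of different genes are set side by side only per kilobase of exon (RPKM). The length is that of all annotated exons of a gene joined, not of the transcripts expressed. Shares and ratios between genes depend on this choice. Changes are log2 fold changes from 1 edgeR quasi-likelihood fit over all 18 libraries. The 6 groups share 1 estimate of the spread of a gene, so wide libraries in 1 group also weigh on tests between other groups. Each standard error (SE) was derived as the absolute log2 fold change divided by the square root of the F statistic of its test. A change is said to have passed the test at an adjusted p under 0.05. In the control line, 7 of the 10 genes changed between myoblasts and myotubes (3 higher, 4 lower), against 62.8% of all genes tested. The overexpressor likewise had 7 (4 higher, 3 lower; 62.8% of all genes), and the knockout had 9 (3 higher, 6 lower; 65.4% of all genes). In a set of 10 genes chosen by name such counts say little, and what follows rests on the size and direction of single genes.

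**Figure D1:**
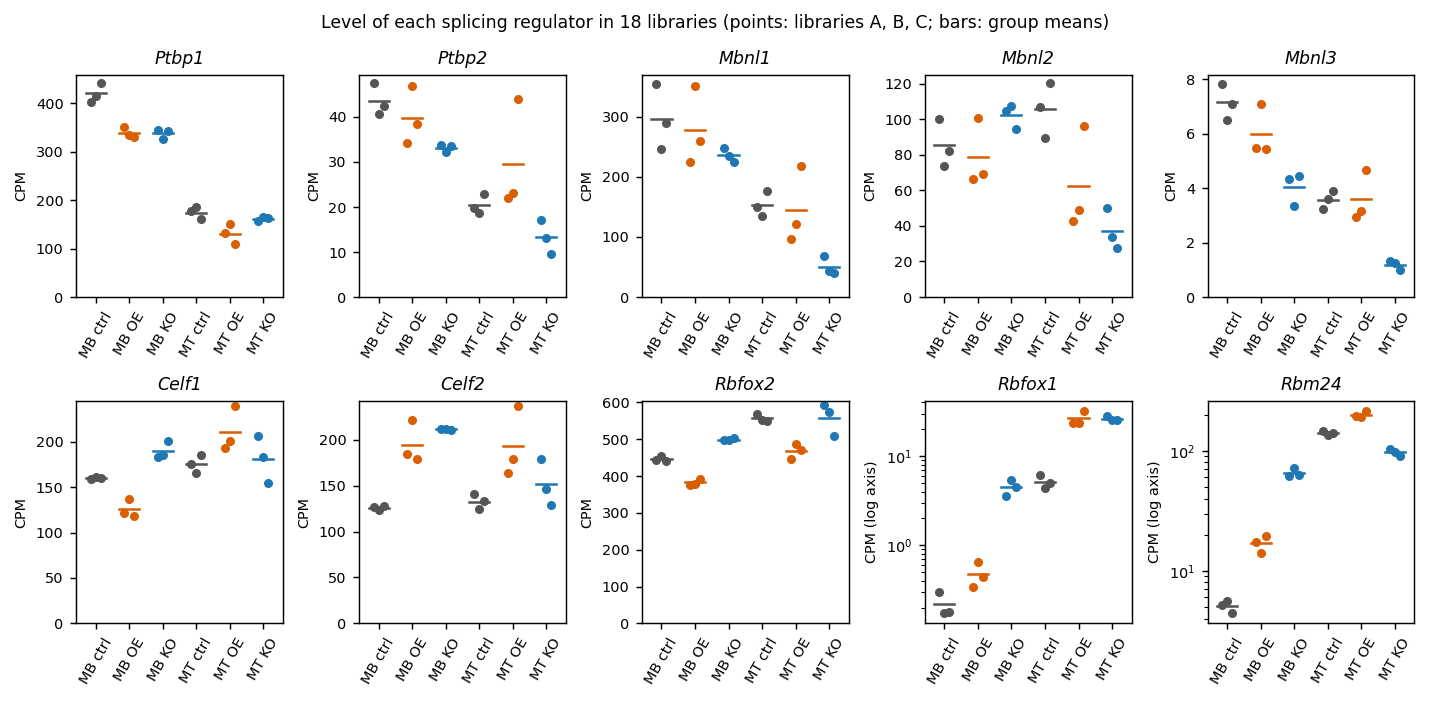
Level of each of the 10 splicing regulators (CPM) in the 18 libraries, by stage (MB, myoblasts; MT, myotubes) and line (ctrl, control; OE, overexpressor; KO, knockout); points are libraries A, B and C from left to right and bars are group means, with log axes for Rbfox1 and Rbm24. Rbm24 climbs from 4.43 to 5.58 CPM in control myoblasts to 192 to 215 CPM in overexpressor myotubes, and Mbnl1, Mbnl2, Mbnl3 and Ptbp2 have their lowest libraries in knockout myotubes.

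Rbm24 encodes an RNA-binding protein of heart and skeletal muscle that promotes inclusion of muscle exons. The gene lies at chr13:46418434-46431095 on the plus strand of GRCm38. It stood at 5.21, 5.58 and 4.43 CPM in libraries A, B and C of control myoblasts, at 17.4, 14.2 and 19.4 CPM in overexpressor myoblasts and at 62.0, 72.1 and 62.4 CPM in knockout myoblasts. Myotubes held 147, 136 and 140.4 CPM in the control, 193, 192 and 215 CPM in the overexpressor and 103, 98.2 and 90.2 CPM in the knockout. No range overlapped any other, and the order of the groups was control, overexpressor and knockout myoblasts, then knockout, control and overexpressor myotubes.

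The rise of Rbm24 with differentiation was steep in the control, at 27.7-fold (log2 fold change 4.79, SE 0.12, adjusted p = 7.07e-16). In the overexpressor the rise was 11.8-fold (log2 3.56, SE 0.11, adjusted p = 8.99e-15). The knockout line gained only 1.48-fold (log2 0.57, SE 0.10, adjusted p = 6.88e-05), from a myoblast level that was already 12.9-fold above the control (log2 3.69, SE 0.11, adjusted p = 1.95e-14). Its day 3 level was 1.45-fold below that of control myotubes (log2 -0.54, SE 0.10, adjusted p = 0.000106). Overexpressor cells were above the control at both stages, by 3.34-fold in myoblasts (adjusted p = 4.55e-10) and 1.42-fold in myotubes (adjusted p = 0.000228). Each of these calls passed in every alternative that was run. The raised myoblast level in the knockout ran beside the myotube markers, which stood 5.47 higher on the log2 scale at their median in the same comparison, and the part of early differentiation in it was not tested.

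The RefSeq window of Rbm24 is shown because this gene separated all 6 groups. Windows run from 250 bases before to 50 bases after an annotated start (GRCm38.p6), 15 windows covered 9 of the 10 genes, and Rbfox2 was not among them. Searched on both strands were an E-box that myogenic factors bind, CAGCTG, a second E-box with its reverse complement, CAGGTG, the MCAT element of muscle promoters, CATTCC, and the MEF2 site by name. They were chosen after the windows had been looked at. In the line below, at chr13:46418050-46418349 on the plus strand, the capitals mark the E-box CAGGTG, which 20.2% of 32851 windows of this length held in either orientation. MCAT was in 14.7% of all windows and, among the members, in the first of the 5 Celf2 windows, and MEF2 was in 3.19% and in no member's window. The windows of Ptbp2, Celf1 and the Mbnl genes held none of the motifs.
Rbm24: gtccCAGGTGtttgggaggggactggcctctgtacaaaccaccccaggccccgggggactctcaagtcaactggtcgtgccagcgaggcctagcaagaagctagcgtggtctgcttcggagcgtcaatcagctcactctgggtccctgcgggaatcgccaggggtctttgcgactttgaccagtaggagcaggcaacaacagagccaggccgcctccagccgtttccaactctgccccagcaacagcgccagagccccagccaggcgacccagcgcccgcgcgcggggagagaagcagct

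Rbfox1, a splicing factor of neurons, heart and mature muscle that binds GCAUG-type motifs, lies at chr16:5885355-7411526 on the plus strand. Control myoblasts had 0.300, 0.173 and 0.178 CPM, resting on only 8 to 16 counts, and overexpressor myoblasts had 0.339, 0.647 and 0.439 CPM. In knockout myoblasts it reached 3.61, 5.46 and 4.48 CPM, a range that overlapped the 6.18, 4.44 and 4.94 CPM of control myotubes. Overexpressor myotubes, at 23.7, 23.65 and 32.1 CPM, and knockout myotubes, at 28.3, 25.2 and 25.3 CPM, overlapped each other and stood above all other groups.

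Differentiation raised Rbfox1 by 4.55 on the log2 scale in the control (SE 0.26, adjusted p = 3.22e-11), by 5.80 in the overexpressor (SE 0.23, adjusted p = 2.15e-13) and by 2.53 in the knockout (SE 0.18, adjusted p = 1.18e-09). Day 3 myotubes of both clones carried 5.10-fold (overexpressor) and 5.06-fold (knockout) the control level, with log2 differences of 2.35 (SE 0.18, adjusted p = 2.12e-09) and 2.34 (SE 0.18, adjusted p = 1.96e-09). These 2 comparisons share the control libraries. In myoblasts the knockout exceeded the control by 20.5-fold (log2 4.36, SE 0.26, adjusted p = 1.42e-10). The smaller difference of the overexpressor myoblasts (log2 1.10, SE 0.35, adjusted p = 0.0171) rested on 8 to 30 counts a library. It lost its call with GC offsets (adjusted p = 0.0505) and without control library B (0.0702), control library C (0.0592) or overexpressor library B (0.11).

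Rbfox2, the widely expressed relative of Rbfox1, lies at chr15:77078990-77307004 on the minus strand and changed little. Myoblasts held 443, 454 and 440.2 CPM in the control, 377, 379 and 392 CPM in the overexpressor and 497, 497 and 502 CPM in the knockout. In myotubes these were 567, 553 and 549.9 CPM, 445, 487 and 470 CPM, and 593, 573 and 509.5 CPM. The overexpressor was lowest at both stages without overlap, by 0.22 on the log2 scale in myoblasts (adjusted p = 0.00450) and 0.25 in myotubes (adjusted p = 0.000944). The myotube difference shrank to -0.11 with library totals (adjusted p = 0.166) and -0.105 with GC offsets (adjusted p = 0.0736), to -0.14 with DESeq2 size factors (adjusted p = 0.0562), to -0.16 with the compared groups alone (adjusted p = 0.0704) and to -0.15 without overexpressor library C (adjusted p = 0.0498).

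The differentiation response of Rbfox2 was a rise of 0.32 in the control (SE 0.06, adjusted p = 7.94e-05), 0.29 in the overexpressor and 0.16 in the knockout. Library totals took the control rise to 0.08 (adjusted p = 0.288) and the knockout response to -0.004 (adjusted p = 0.964), while DESeq2 size factors took the knockout response to 0.29 (adjusted p = 0.000424). That knockout call was also lost without myotube library A (adjusted p = 0.0941) or B (0.0675), without myoblast library A (0.0511) and without the filter on low counts (0.0854). Knockout myoblasts exceeded control myoblasts by 0.16 (adjusted p = 0.0225), a call that 7 of 14 alternatives lost, among them those without control library A or C or knockout library B or C. Its adjusted p ran from 0.00117 to 0.0777 over all 14. Per kilobase of exon, Rbfox2 made up 99.9% ± 0.0303 of the summed RPKM of both Rbfox genes in control myoblasts and 98.3% ± 0.260 in control myotubes (SD, n = 3). That share was 90.5% ± 1.55 in overexpressor and 92.0% ± 0.441 in knockout myotubes (SD, n = 3), below every control library.

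Of the 2 windows of Rbfox1, the second, inside the gene at chr16:7069585-7069884 on the plus strand, held the E-box CAGCTG, which 16.3% of all windows held. It is shown, with the motif in capitals, for comparison with the window of Rbm24.
Rbfox1: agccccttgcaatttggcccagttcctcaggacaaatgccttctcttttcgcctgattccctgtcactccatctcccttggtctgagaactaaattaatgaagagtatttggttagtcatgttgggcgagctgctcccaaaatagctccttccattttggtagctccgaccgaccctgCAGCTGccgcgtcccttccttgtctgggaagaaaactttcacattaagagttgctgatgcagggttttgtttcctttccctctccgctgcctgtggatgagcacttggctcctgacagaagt

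**Figure D2:**
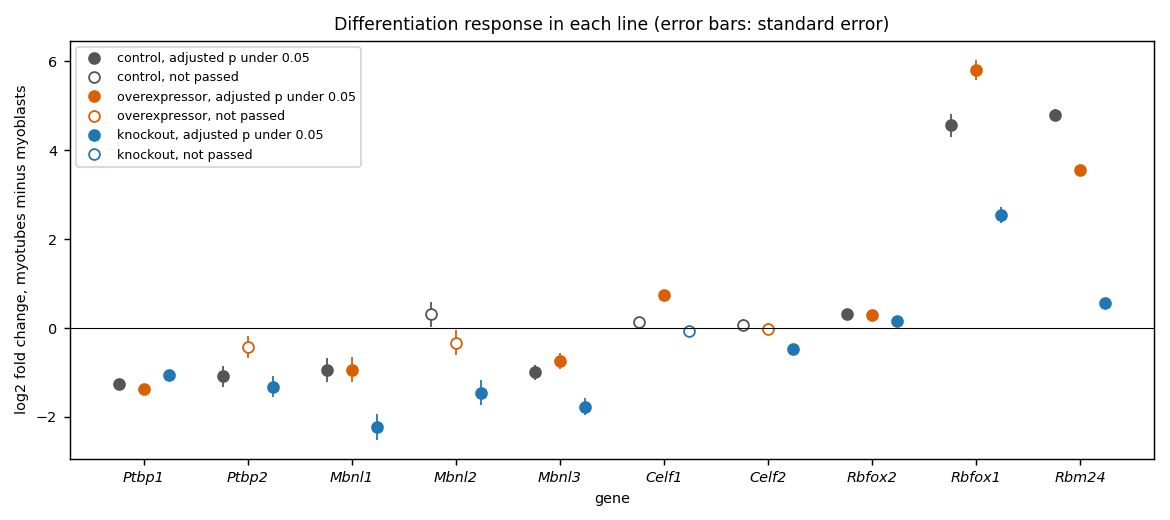
Log2 fold change of each gene between myotubes and myoblasts in the control, overexpressor and knockout lines; error bars are standard errors, filled points have an adjusted p under 0.05 and open points do not. Rbm24 (4.79, 3.56 and 0.57) and Rbfox1 (4.55, 5.80 and 2.53) spread most between lines, whereas Ptbp1 is alike in all of them (-1.27, -1.37 and -1.06).

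Ptbp1 encodes the main PTB protein of dividing cells, a repressor of many neuronal and muscle exons, and lies at chr10:79854427-79864771 on the plus strand. In myoblasts the control held 402, 416 and 442 CPM, the overexpressor 351, 334 and 330.1 CPM and the knockout 344, 326 and 342 CPM. Myotubes held 177, 185 and 161 CPM, 133, 150 and 109 CPM, and 156, 166 and 163 CPM. Every myotube library was below every myoblast library, the control was above both clones in myoblasts, and overexpressor myotubes were the lowest group.

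With differentiation Ptbp1 fell 2.41-fold in the control (log2 -1.27, SE 0.09, adjusted p = 3.93e-10), 2.59-fold in the overexpressor (log2 -1.37, SE 0.09, adjusted p = 1.28e-10) and 2.09-fold in the knockout (log2 -1.06, SE 0.09, adjusted p = 7.47e-09). The myoblasts of both clones were lower than the control, by 0.31 on the log2 scale in the overexpressor (adjusted p = 0.00675) and 0.32 in the knockout (adjusted p = 0.00457). In myotubes the overexpressor was lower by 0.41 (SE 0.09, adjusted p = 0.000444), which became -0.20 without overexpressor library C, -0.27 with library totals and -0.27 with GC offsets, each still past the test. The knockout difference there was -0.11 (SE 0.09, adjusted p = 0.271), or -0.18 and past the test with GC offsets (adjusted p = 0.0170). Exons of 3 genes on the opposite strand (E130317F20Rik, Gm17134 and Plppr3) overlap those of Ptbp1, and since the use of strand is not given in the sources used here, its counts are uncertain to that extent. The Ptbp1 window at chr10:79854182-79854481 on the plus strand, given because this gene fell where Rbm24 and Rbfox1 rose, held CAGCTG too, in the stretch after the annotated start (capitals).
Ptbp1: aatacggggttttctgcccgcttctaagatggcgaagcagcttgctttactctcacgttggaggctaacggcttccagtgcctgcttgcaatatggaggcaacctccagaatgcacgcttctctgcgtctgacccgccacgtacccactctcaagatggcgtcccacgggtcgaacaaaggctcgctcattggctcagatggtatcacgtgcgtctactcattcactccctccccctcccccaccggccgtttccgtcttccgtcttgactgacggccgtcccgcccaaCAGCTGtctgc

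Ptbp2, the neuronal PTB gene, at chr3:119718742-119784466 on the minus strand, was far lower than Ptbp1: its RPKM was 0.0537 ± 0.00639 of that of Ptbp1 in control myoblasts and 0.0612 ± 0.0111 in control myotubes (SD, n = 3). Myoblasts held 47.5, 40.7 and 42.4 CPM in the control, 34.3, 46.9 and 38.4 CPM in the overexpressor and 33.8, 32.2 and 33.6 CPM in the knockout. Myotubes held 19.8, 18.6 and 22.9 CPM, 22.0, 23.0 and 43.9 CPM, and 17.1, 13.2 and 9.56 CPM. Overexpressor myotube library C, at 43.9 CPM, stood apart from its group and lay within the range of the myoblasts.

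Ptbp2 fell with differentiation by 1.09 on the log2 scale in the control (SE 0.24, adjusted p = 0.00105). It fell in the knockout too (log2 -1.318, SE 0.24, adjusted p = 0.000247), a value that became -0.45 with GC offsets (adjusted p = 6.50e-06). The overexpressor value was -0.43 (SE 0.24, adjusted p = 0.131), but -0.78 and past the test without library C of its myotubes (adjusted p range over leaving out single libraries, 0.000632 to 0.410), and -0.49 with GC offsets (adjusted p = 8.39e-07). Knockout myotubes were below control myotubes by 0.62 (SE 0.24, adjusted p = 0.0341) in the uncorrected fit. That call is not stable: the sign turned with GC offsets (0.27, adjusted p = 0.00117), and other alternatives lost it, among them those without control library A or C or knockout library B or C (adjusted p 0.0577 to 0.151). Knockout myoblasts (-0.39, adjusted p = 0.182) and overexpressor myotubes (0.53, adjusted p = 0.0694) did not pass against the control, but did with GC offsets (-0.54 and 0.55). The knockout myoblast libraries (32.2 to 33.8 CPM) nevertheless all lay below those of control myoblasts (40.7 to 47.5 CPM).

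Mbnl1 is the most abundant muscleblind gene of muscle, whose protein promotes adult splicing patterns and is sequestered in myotonic dystrophy, and it lies at chr3:60472830-60629750 on the plus strand. Libraries A, B and C of control, overexpressor and knockout myoblasts held 354, 247 and 289 CPM, 224, 351 and 260.3 CPM, and 248, 235 and 225 CPM. In myotubes these were 150.1, 134 and 177 CPM, 97.4, 122 and 217 CPM, and 68.6, 43.6 and 39.5 CPM. All knockout myotube libraries were below every other library, and the other lines overlapped within each stage.

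The fall of Mbnl1 with differentiation was 1.93-fold in the control (log2 -0.95, SE 0.28, adjusted p = 0.00752), 1.92-fold in the overexpressor (log2 -0.94, SE 0.28, adjusted p = 0.00808) and 4.66-fold in the knockout (log2 -2.22, SE 0.29, adjusted p = 9.02e-06). Knockout myotubes held 3.04-fold less than control myotubes (log2 -1.60, SE 0.28, adjusted p = 0.000149). Both knockout values shrank with GC offsets, to -1.35 (adjusted p = 9.59e-12) and -0.71 (adjusted p = 8.14e-08), and kept their sign and call. In myoblasts neither clone differed from the control past the test (overexpressor -0.09, knockout -0.33), but with GC offsets both did (-0.19, adjusted p = 0.0467, and -0.47, adjusted p = 1.75e-05).

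Mbnl2, a muscleblind gene that shares targets with Mbnl1, lies at chr14:120275669-120431697 on the plus strand, and an exon of the antisense gene Gm26679 overlaps it. Myoblasts held 100.2, 73.6 and 82.1 CPM in the control, 66.2, 100.5 and 69.4 CPM in the overexpressor and 105, 107 and 94.7 CPM in the knockout. Myotubes held 107, 89.6 and 120.5 CPM, 42.6, 49.2 and 96.2 CPM, and 50.2, 33.8 and 27.8 CPM. The knockout was thus highest among the myoblast groups by its mean and lowest among the myotube groups, while overexpressor myotube library C again sat apart from A and B.

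Mbnl2 had no called change with differentiation in the control (log2 0.31, SE 0.28, adjusted p = 0.353) or the overexpressor (-0.33, SE 0.28, adjusted p = 0.327), the latter being -0.73 and past the test without overexpressor myotube library C (adjusted p = 0.0120). It fell in the knockout by 1.45 (SE 0.29, adjusted p = 0.000465), or -0.88 with GC offsets (adjusted p = 0.000230). Knockout myotubes were 1.503 below control myotubes (SE 0.29, adjusted p = 0.000313), or -0.91 with GC offsets (adjusted p = 0.000139). The overexpressor difference in myotubes, -0.76 (SE 0.28, adjusted p = 0.0328), was lost in 8 alternatives. These were DESeq2 size factors (adjusted p = 0.0501), library totals, no filter on low counts, the compared groups alone, and leaving out control library A or C or overexpressor library A or B (highest adjusted p = 0.140).

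Mbnl3, on the X chromosome (chrX:51117269-51206532, minus strand), encodes the muscleblind protein linked to immature muscle cells and was low throughout. Control myoblasts held 7.83, 6.52 and 7.08 CPM, overexpressor myoblasts 5.47, 7.10 and 5.43 CPM and knockout myoblasts 4.35, 3.33 and 4.45 CPM. In myotubes the values were 3.24, 3.59 and 3.90 CPM, 2.93, 3.16 and 4.68 CPM, and 1.31, 1.24 and 0.983 CPM, the last resting on 47 to 77 counts. The knockout lay below the control without overlap at both stages.

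Differentiation lowered Mbnl3 by 0.997 in the control (log2 scale, SE 0.18, adjusted p = 8.07e-05), 0.74 in the overexpressor (SE 0.18, adjusted p = 0.00123) and 1.77 in the knockout (SE 0.20, adjusted p = 3.77e-07; -0.997 with GC offsets). Against the control the knockout was lower by 0.82 in myoblasts (SE 0.18, adjusted p = 0.000649) and by 1.59 in myotubes (SE 0.20, adjusted p = 1.14e-06; -0.80 with GC offsets, adjusted p = 2.87e-05). The overexpressor differences were -0.25 (adjusted p = 0.274; -0.32 and 0.0254 with GC offsets) and 0.01 (adjusted p = 0.982).

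Celf1, a CUG-binding regulator of splicing and mRNA decay that acts against MBNL proteins on many muscle exons, lies at chr2:90940382-91019497 on the plus strand. As myoblasts, control libraries held 159, 161 and 159.7 CPM, overexpressor libraries 122, 137 and 119 CPM, and knockout libraries 183, 186 and 201 CPM. In myotubes the libraries held 176, 166 and 185 CPM, 194, 200.5 and 239 CPM, and 206, 184 and 155 CPM. The overexpressor was thus the lowest of the myoblast groups, without overlap, and had the highest mean of the myotube groups.

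Celf1 rose with differentiation in the overexpressor, by 0.75 (log2 scale, SE 0.09, adjusted p = 1.61e-06), and did not pass the test in the control (0.13, SE 0.09, adjusted p = 0.225) or the knockout (-0.06, SE 0.09, adjusted p = 0.571). With GC offsets the knockout value became 0.30 and passed (adjusted p = 1.11e-05). Overexpressor myoblasts were below the control by 0.35 (SE 0.09, adjusted p = 0.00645), and overexpressor myotubes above it by 0.26 (SE 0.09, adjusted p = 0.0229), or 0.41 with library totals and 0.40 with GC offsets. The myotube call was lost without control library A (adjusted p = 0.0516) or B (0.0895). Knockout myoblasts exceeded the control by 0.25 (SE 0.09, adjusted p = 0.0363), which 7 of 14 alternatives lost, among them library totals (0.0810) and those without control library A, B or C or knockout library B or C (up to 0.130). The difference of the knockout myotubes was 0.05 (adjusted p = 0.667), or 0.43 with GC offsets (adjusted p = 1.055e-07).

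Celf2, a relative of Celf1 found in heart, brain and blood cells as well as muscle, lies at chr2:6539694-7509563 on the minus strand, with 1 overlapping opposite-strand gene, Gm26565. Control libraries held 127, 123 and 128 CPM as myoblasts and 141, 125 and 133 CPM as myotubes. Overexpressor libraries held 184, 222 and 179 CPM and then 164, 179 and 237 CPM. Knockout libraries held 212, 212 and 210.3 CPM and then 179.5, 147 and 129 CPM, so that both clones were above the control without overlap in myoblasts, and only the overexpressor was in myotubes.

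In myoblasts Celf2 was higher than in the control by 0.63 in the overexpressor (log2 scale, SE 0.13, adjusted p = 0.000604) and by 0.75 in the knockout (SE 0.13, adjusted p = 8.20e-05). Overexpressor myotubes were higher by 0.54 (SE 0.13, adjusted p = 0.00136), and the knockout value was 0.19 (SE 0.13, adjusted p = 0.186), or 0.82 with GC offsets (adjusted p = 4.42e-12) and 0.32 with DESeq2 size factors (adjusted p = 0.0148). Its differentiation response was 0.08 in the control (adjusted p = 0.610) and -0.01 in the overexpressor (adjusted p = 0.941). The fall of Celf2 in the knockout, by 0.48 (SE 0.13, adjusted p = 0.00317), turned to 0.14 with GC offsets (adjusted p = 0.0119).

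Against the control, 6 of the 10 genes were called in overexpressor myoblasts (3 higher, 3 lower; 40.4% of all genes) and 7 in knockout myoblasts (5 higher, 2 lower; 53.0% of all genes). In myotubes the overexpressor had 7 calls (4 higher, 3 lower; 57.1%), whereas the knockout had 6 (1 higher, 5 lower; 68.0%). Rbfox1 was the only gene called above the control in knockout myotubes, and with GC offsets Ptbp2, Celf1 and Celf2 joined it. The clones themselves differed in 5 genes as myoblasts (1 higher in the overexpressor, 4 lower; 52.6% of all genes) and in 8 as myotubes (6 higher, 2 lower; 59.7%). The largest of these were Rbfox1 in myoblasts, where the overexpressor was 9.53-fold lower (log2 -3.25, SE 0.23, adjusted p = 1.39e-09), and Rbm24 in myoblasts, 3.855-fold lower (log2 -1.95, SE 0.10, adjusted p = 2.19e-11). As myotubes the clones did not differ in Rbfox1 past the test (log2 0.01, SE 0.16, adjusted p = 0.957), whereas Rbm24 was 2.06-fold higher in the overexpressor (log2 1.04, SE 0.10, adjusted p = 1.045e-07).

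Other calls between the clones differed in how they held under the alternatives. In myoblasts the overexpressor exceeded the knockout in Mbnl3 by 0.57 (adjusted p = 0.0110), which was lost without overexpressor library B (0.0667) or knockout library B (0.0671), and lay below it in Celf1 by 0.59 (adjusted p = 3.52e-05) and in Rbfox2 by 0.38 (adjusted p = 1.60e-05). In myotubes Mbnl1 (1.52), Mbnl3 (1.60) and Ptbp2 (1.15) were higher in the overexpressor and remained so with GC offsets at 0.64, 0.88 and 0.27. The myotube differences of Mbnl2 (0.75, adjusted p = 0.0346), Celf2 (0.35, adjusted p = 0.0241) and Ptbp1 (-0.31, adjusted p = 0.00553) lost their calls without overexpressor library C (0.33, 0.21 and -0.16), those of Mbnl2 and Celf2 also without knockout library B or C, and all 3 with the compared groups alone. With GC offsets these were 0.22 and -0.08 for Mbnl2 and Ptbp1, both not past the test, and -0.18 for Celf2 (adjusted p = 0.00257). Rbfox2 was lower by 0.26 there (adjusted p = 0.000917), or -0.16 with library totals.

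Whether the lines differed in their response to differentiation was tested directly as an interaction. The overexpressor response differed from that of the control in 3 genes (39.0% of all genes): it was smaller for Rbm24 by 1.24 (log2 scale, SE 0.15, adjusted p = 2.18e-06), larger for Rbfox1 by 1.25 (SE 0.41, adjusted p = 0.0218) and larger for Celf1 by 0.61 (SE 0.13, adjusted p = 0.00122). The Rbfox1 value lost its call without control myoblast library A (0.93, adjusted p = 0.160) or overexpressor myoblast library A (1.05, adjusted p = 0.0623). The knockout response was lower than that of the control in 6 genes and higher in 0. Of all genes, 29.9% were lower and 20.2% higher (50.1% called). Rbm24 led with -4.22 (SE 0.15, adjusted p = 4.11e-13), then Rbfox1 with -2.02 (SE 0.33, adjusted p = 7.97e-05), and with GC offsets these were -4.23 and -2.03.

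The other 4 knockout interactions were in genes of low GC content and moved with the correction for it. Mbnl2 went from -1.76 (SE 0.40, adjusted p = 0.00215) to -1.09 with GC offsets (adjusted p = 0.000987) and kept its call. Mbnl1 went from -1.27 (adjusted p = 0.0143) to -0.24 (adjusted p = 0.0729) and lost it. Mbnl3 went from -0.77 (adjusted p = 0.0212) to 0.14 (adjusted p = 0.544), and it was also lost without control myoblast library B, knockout myoblast library C or library C of either myotube group (0.0504 to 0.0613). Celf2 turned from -0.56 (adjusted p = 0.0158) to 0.16 (adjusted p = 0.0449) and lost its call without the filter on low counts (adjusted p = 0.0511). Ptbp2, at -0.23 (adjusted p = 0.605), became 0.82 with GC offsets (adjusted p = 3.65e-07).

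Transcript GC content therefore has to be read beside these results. The 9889 genes with a mean log2 CPM above 3 were split by GC into 5 bins of like size. The bin of lowest GC (34.3% to 44.9%) had a median log2 fold change of -0.69 in knockout against control myotubes and -0.715 in the knockout differentiation response, and the bin of highest GC (55.7% to 73.7%) had 0.19 and 0.225. In the control differentiation response these bins stood at 0.15 and -0.008. In the knockout interaction they stood at -0.81 and 0.25. Of the 10 genes, Mbnl1 (40.3%), Ptbp2 (40.4%), Mbnl3 (41.7%), Celf2 (43.5%) and Mbnl2 (43.9%) fell into the lowest bin. Celf1 (46.4%) was in the next, Rbfox2 (50.7%), Rbm24 (51.8%) and Rbfox1 (51.8%) were near the median of all genes, 50.3%, and Ptbp1 (55.3%) was above it. What gave rise to the GC-related shift was not tested.

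Libraries of 1 group differed along the same axis. Low-GC genes deviated from their group mean by a median of 0.39 in overexpressor myotube library C and -0.25 in its library A, by 0.26 in knockout myotube library A and -0.21 in its library C, and by 0.21 in overexpressor myoblast library B. Over the 18 libraries, the deviation of Mbnl2 from its group mean followed that of low-GC genes with a Pearson r of 0.99, Ptbp2 with 0.98, Mbnl1 with 0.97, Celf2 with 0.95, Celf1 with 0.90 and Mbnl3 with 0.84. The r was 0.59 for Rbfox1 and 0.41 for Rbfox2, both of middle GC content, 0.10 for Rbm24 and -0.73 for Ptbp1. These coefficients are descriptions: the points share libraries and group means, and Ptbp2, Celf2 and the Mbnl genes belong to the low-GC set themselves. The offsets come from the same libraries that were tested, and a change in the cells that followed GC content would be removed along with a technical one.

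**Figure D3:**
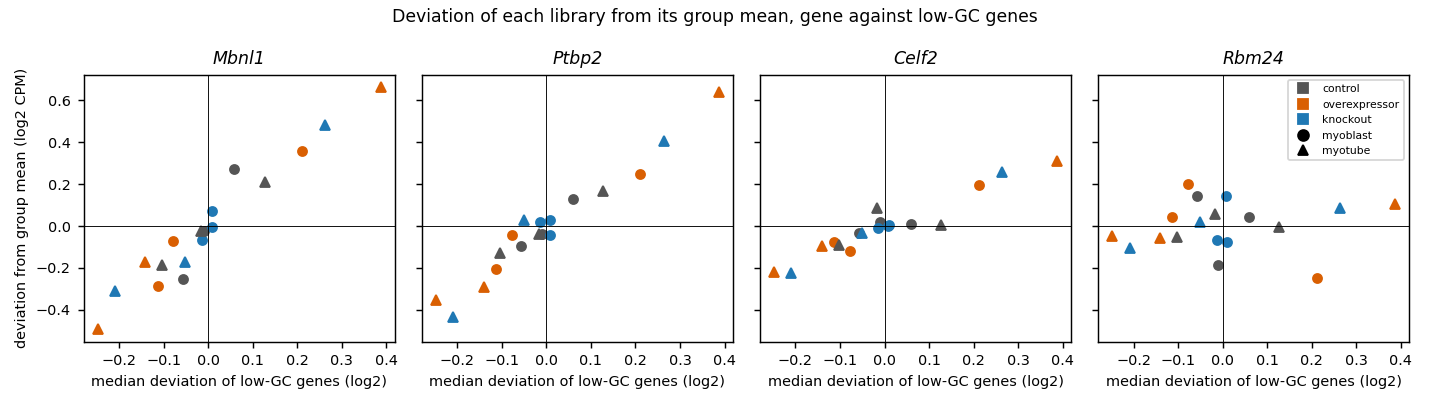
Deviation of Mbnl1, Ptbp2, Celf2 and Rbm24 from their group mean (log2 CPM) in each of the 18 libraries, against the median deviation of genes in the bin of lowest transcript GC content; colours are lines, circles myoblasts and triangles myotubes. Mbnl1 (r = 0.97), Ptbp2 (0.98) and Celf2 (0.95) lie along a line, with overexpressor myotube library C at the upper right, and Rbm24 (0.10) does not.

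**Figure D4:**
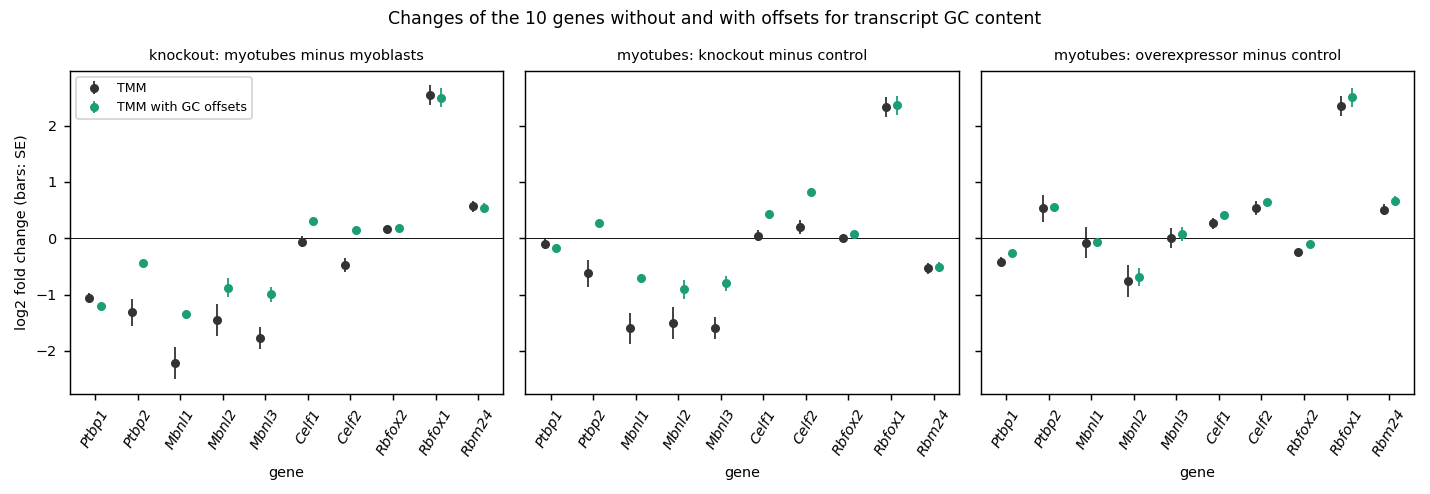
Log2 fold changes with standard errors of the 10 genes in 3 comparisons, from the TMM fit and from the same fit with offsets for transcript GC content. In the knockout comparisons Mbnl1, Mbnl2, Mbnl3 and Ptbp2 move upward (Mbnl1 from -1.60 to -0.71 against control myotubes), while Rbfox1 and Rbm24 stay close to their first values.

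Within the MBNL family the shares of the genes varied less between libraries than their levels. Mbnl1 made up 66.6% ± 0.786 of the summed MBNL RPKM in control myoblasts and 47.1% ± 0.689 in control myotubes (SD, n = 3), and Mbnl2 rose from 30.0% ± 0.552 to 50.55% ± 0.951. In knockout cells the Mbnl2 share was 39.5% ± 1.25 as myoblasts and 52.2% ± 1.12 as myotubes, and in overexpressor cells 29.6% ± 1.02 and 38.8% ± 1.22 (SD, n = 3). All overexpressor myotube libraries, at 39.1%, 37.4% and 39.8%, were therefore below all control and knockout myotube libraries, which began at 49.7%. Library C of that group, though highest in the level of every Mbnl gene, did not stand apart in this share.

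The summed MBNL level of control, overexpressor and knockout myoblasts was 23.8 ± 4.10, 22.1 ± 5.16 and 21.6 ± 1.05 RPKM, and 17.4 ± 2.45, 13.4 ± 5.93 and 5.95 ± 1.82 RPKM in the respective myotubes (SD, n = 3). Set against the summed CELF level, MBNL stood at a ratio of 0.998 ± 0.174 in control myoblasts and 0.670 ± 0.0615 in control myotubes. Overexpressor myoblasts had 0.979 ± 0.142 and knockout myoblasts 0.706 ± 0.0584 (SD, n = 3). All knockout myoblast libraries (0.641 to 0.753) were below those of control myoblasts (0.841 to 1.185). Overexpressor myotubes had 0.402 ± 0.120 and knockout myotubes 0.214 ± 0.0356 (SD, n = 3), and the libraries of the 3 myotube groups did not overlap. This ratio joins genes of unequal GC content, so the limit above applies to it. The PTB sum fell from 93.3 ± 4.11 to 39.0 ± 2.29 RPKM in the control, and Ptbp1 carried nearly all of it.

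**Figure D5:**
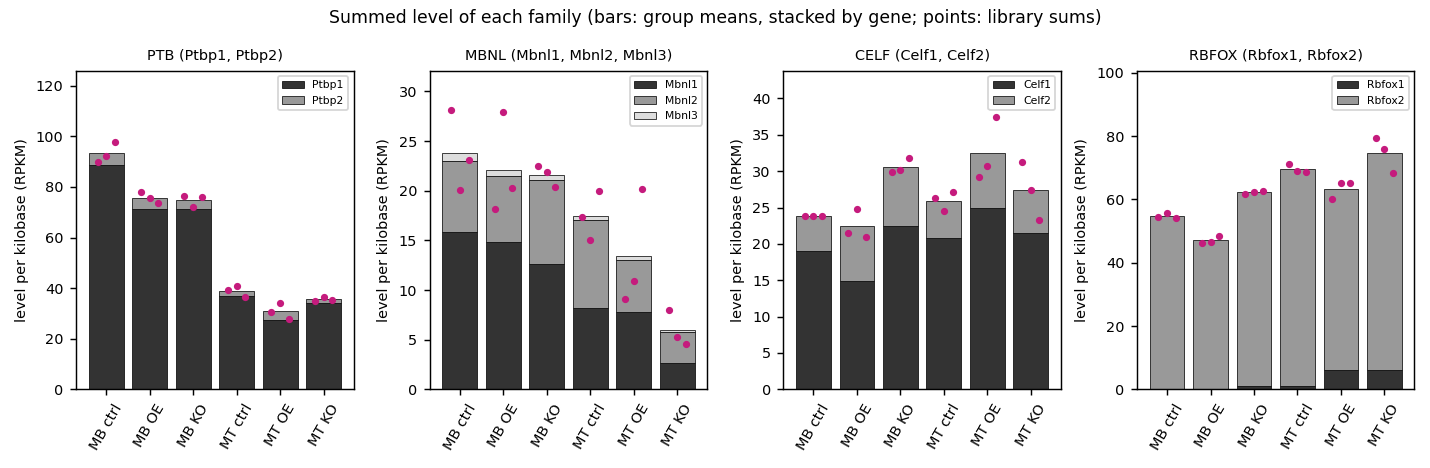
Summed level of each family per kilobase of exon (RPKM) by group, with bars for group means stacked by gene and points for the sums of single libraries. MBNL sums are lowest in knockout myotubes (5.95 RPKM) and spread widely in overexpressor myotubes, the PTB sums fall in all lines, and Rbfox1 forms a visible part of the RBFOX sum only in the myotubes of both clones.

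Genes most like each member were sought by the Pearson r of log2 CPM over the 18 libraries, which largely reflects the 6 groups. Closest to Rbm24 were Ttn, encoding titin (0.991), Cap2 (0.987) and Ngrn (0.984). Ttn had mean levels of 14.3, 58.9 and 366.5 CPM in control, overexpressor and knockout myoblasts and 698.5, 1011 and 523 CPM in the myotubes, the same order of groups as Rbm24. Rbfox1 was followed most closely by Rab40b (0.991), Erbb3 (0.990) and Asb16 (0.989), and Ptbp1 by Trerf1 (0.987), Dazap1 (0.986) and Ssrp1 (0.986). Mbnl1 was nearest to Ptbp3, the third PTB gene (0.993), then Man1a2 and Fmr1, with transcript GC of 42.2%, 45.0% and 38.6%. The neighbours of Mbnl2 (Top2b, Ddx5 and Gmfb), Mbnl3 (Spred1, Slc5a3 and Usp48), Ptbp2 (Msh3, Rhobtb3 and Zfp367) and Celf2 (Atp2b1, Tspan12 and Acsl4) had GC contents of 38.8% to 47.9%, below the median of all genes. The nearest neighbours of Rbfox2 (Prag1, 0.954), Celf2 (Atp2b1, 0.951) and Celf1 (Clpx, 0.945) had lower r than those of the other members.

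Other splicing regulators gave a background for the 10. Of 30 relatives and tissue-restricted factors, 20 passed the filter, and in the control 4 rose and 12 fell with differentiation (median log2 fold change -0.43, against 0.07 for all genes, of which 33.9% rose and 28.8% fell). Rbm38, an RNA-binding protein induced in differentiating myoblasts, rose by 2.698 (SE 0.11, adjusted p = 2.46e-13), and Rbm20, a regulator of titin splicing, by 1.08 (SE 0.06, adjusted p = 3.57e-11). Celf5 fell by 3.22 (SE 0.16, adjusted p = 3.30e-12) and Khdrbs3, a STAR-family factor, by 2.53 (SE 0.11, adjusted p = 9.295e-13). In the knockout 4 of the 20 rose and 13 fell (29.8% and 35.6% of all genes), and in the overexpressor 5 rose and 10 fell (29.8% and 33.0%).

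SR proteins and hnRNPs, the general activators and repressors of splicing, mostly fell. Of 35 tested from a list of 36, 25 fell and 0 rose in the control (median -0.59), 24 fell and 2 rose in the overexpressor (median -0.46), and 35 fell and 0 rose in the knockout (median -0.88). Of all genes 28.8%, 33.0% and 35.6% fell in these comparisons. Hnrnpa1 fell by 1.34 in the control (SE 0.15, adjusted p = 5.25e-07) and Hnrnpd by 1.27 (SE 0.10, adjusted p = 4.27e-09). In knockout against control myotubes 22 were lower and 3 higher (37.0% and 31.0% of all genes). With GC offsets 11 were lower and 13 higher there, and 29 lower and 1 higher in the knockout differentiation response. The shares of all genes with GC offsets are not given here, and those above are from the fit without them. The median transcript GC of the list was 44.6%. All 44 core spliceosome genes were tested: 21 fell and 6 rose in the control (median -0.19; 28.8% and 33.9% of all genes), with Snrpa1 at -1.15 (adjusted p = 5.42e-10) and Snrpf at -0.97 (adjusted p = 7.09e-09), Slu7 at 1.04 (adjusted p = 4.01e-07) and Prpf6 at 0.47 (adjusted p = 1.08e-06).

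Of 31 muscle genes known to be spliced by these families, 22 rose and 6 fell with differentiation in the control (median 1.83), 24 rose and 4 fell in the overexpressor (median 1.63), and 21 rose and 4 fell in the knockout (median 1.06). Of all genes 33.9%, 29.8% and 29.8% rose in these comparisons. Mef2c, a myogenic transcription factor, rose by 8.90 in the control (SE 0.43, adjusted p = 1.06e-10) and by 2.12 in the knockout. Cacna1s, the calcium channel of the T-tubule, rose by 6.45 (SE 0.20, adjusted p = 9.80e-14) and by 2.27. Knockout myoblasts already stood above control myoblasts, by 7.35 for Mef2c (SE 0.44, adjusted p = 2.18e-09) and 5.69 for Cacna1s (SE 0.19, adjusted p = 9.09e-13). In myotubes the knockout was not below the control, at 0.57 for Mef2c (adjusted p = 0.0548) and 1.51 for Cacna1s (adjusted p = 2.22e-07). Pkm, whose alternative exons PTB proteins are known to control, fell by 1.16 in the control (SE 0.09, adjusted p = 2.52e-09), and Actn1 fell by 0.88 (SE 0.08, adjusted p = 4.32e-08). In knockout myoblasts 23 of the 31 were above the control and 2 below (median 0.91), and in overexpressor myoblasts 15 were above and 6 below (median 0.36), against 26.4% and 20.7% of all genes above. These are total gene levels, and which exons were included was not measured here.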

How the data were processed

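The authors deposited a table of read counts per gene for 18 polyA RNA libraries. Per the submitters' processing notes, STAR 2.7.9a, featureCounts (Subread 2.0.3), FastQC 0.11.7, DESeq2 1.32.0 and the mm10 build were used, with no roles named. Neither the annotation release nor whether counting used strand is given in the sources used here.

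Counts were fitted with edgeR 4.0.16 (limma 3.58.1, R 4.3.3): TMM factors, a filter by group with a minimum count of 10, a robust quasi-likelihood fit over 6 groups with 12 residual degrees of freedom, and Benjamini-Hochberg adjustment over 17912 genes for each of 11 contrasts. The log2 CPM used for correlations between genes had a prior count of 2, which the fold changes of the fit did not use. The fit was tested on simulated data. Gene positions, exon lengths and GC content came from the GENCODE annotation of GRCm38, the build named mm10, and GC content was found for 17890 of the tested genes.

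The members and lists were chosen with earlier results of these data known. The genes named are the 10 members, the 3 genes most like each (at least 5 CPM in the highest group), and from each list up to 2 genes with the highest and 2 with the lowest change in control differentiation. Alternatives were other scalings (DESeq2 1.42.0 size factors, library totals), the DESeq2 Wald test, other filters, the compared groups alone, the replicate letter as a block, and each library left out. GC offsets (a loess of span 0.5 on genes with a mean log2 CPM over 3) were added after seeing the data. Promoter sequences are from RefSeq (GRCm38.p6).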

Additional observations from a re-analysis of the deposited data

Results flagged for a closer look

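Of the 20 tests of whether a clone's response to differentiation differed from that of the control (10 genes in each of 2 clones), 9 passed and are listed here for that reason. Of all genes tested, 39.0% passed in the overexpressor and 50.1% in the knockout, so the number of calls does not set the 10 genes apart. The values are differences between log2 responses, and both clones were set against the same control libraries.

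In the overexpressor the response of Rbfox1 was larger by 1.25, that of Celf1 was larger by 0.61, and that of Rbm24 differed by -1.24. Rbm24 started from a higher myoblast level in this clone and ended above the control, whereas Celf1 started below the control and ended above it.

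In the knockout Rbm24 differed by -4.22 and Rbfox1 by -2.02. Both genes were already raised in the knockout myoblasts, by 3.69 and 4.36, where the summed myotube markers were raised too. Their part in the result was not tested. The other 4 were Mbnl2 at -1.76, Mbnl1 at -1.27, Mbnl3 at -0.77 and Celf2 at -0.56. These are genes of low GC content, and with GC offsets only Mbnl2 kept both its sign and its call (-1.09).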

How the results depend on the processing

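Of 71 called results of the 10 genes, 54 passed the test under every alternative and 17 lost it under at least 1. Of the 54, 53 also kept their sign throughout, and the exception was the knockout response of Celf2, which GC offsets turned. A kept call does not mean a kept size. In 23 of the 71, GC offsets alone lost the call, turned the sign or moved the value by more than a factor of 1.5. Of the 10 genes, 8 were called in the clone comparison of myotubes (59.7% of all genes). This number fell to 5 with the compared groups alone and ran from 5 to 9 over leaving out single libraries. The shares of all genes under these alternatives are not given here, so a general change in calls cannot be told apart from one in these genes.

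Signs turned as follows, on the log2 scale. DESeq2 size factors and the DESeq2 Wald test turned the same 8 values, none called. In myotubes these were Mbnl1 of the overexpressor against the control (0.0198), Ptbp1 of the knockout against the control (0.0233) and Rbfox1 between the clones (-0.0128). In the differentiation responses they were Celf2 in the overexpressor (0.0662) and Celf1 in the knockout (0.0605), and in the overexpressor interaction Ptbp1 (0.0135), Rbfox2 (0.0794) and Celf2 (0.0171). Library totals turned Ptbp1 between the clones as myoblasts (-0.0113), Mbnl1 of the overexpressor myotubes (0.0635), the control responses of Celf1 (-0.108) and Celf2 (-0.166), the knockout response of Rbfox2 (-0.004) and the overexpressor interactions of Ptbp1 (0.0866), Rbfox2 (0.155) and Celf2 (0.0951).

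GC offsets turned Ptbp1 between the clones as myoblasts (-0.0978), Ptbp2 of the knockout myotubes (0.275), and Celf1 (-0.0222) and Celf2 (-0.180) between the clones as myotubes. For Celf2 the control, overexpressor and knockout responses became -0.0232, 0.0207 and 0.141, and for Celf1 the knockout response became 0.304. Interactions became 0.0559 for Ptbp1, 0.1099 for Rbfox2 and 0.0439 for Celf2 in the overexpressor, and 0.815 for Ptbp2, 0.142 for Mbnl3, 0.225 for Celf1 and 0.165 for Celf2 in the knockout.

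A minimum of 1 CPM in 3 libraries turned Ptbp1 between the clones as myoblasts (-0.001), Rbfox1 between them as myotubes (-0.004) and Celf2 in the overexpressor response (0.0021). With no filter on low counts Ptbp1 between the clones as myoblasts became -0.0177, Rbfox2 of the knockout myotubes -0.005, the overexpressor response of Celf2 0.0217 and the overexpressor interaction of Rbfox2 0.0009. With the compared groups alone Mbnl1 of the overexpressor myotubes became 0.0094 and Celf1 in the knockout response 0.0009.

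Leaving out single libraries gave both signs for Mbnl1 (-0.292 to 0.0548) and Mbnl2 (-0.331 to 0.0137) of overexpressor myoblasts and Ptbp1 between the clones as myoblasts (-0.0253 to 0.0225). Among myotubes it did so for Mbnl3 (-0.128 to 0.133) and Mbnl1 (-0.386 to 0.143) of the overexpressor, Rbfox2 (-0.0394 to 0.0679) and Celf1 (-0.0511 to 0.151) of the knockout and Rbfox1 between the clones (-0.122 to 0.0900). The same held for the responses of Celf2 in the overexpressor (-0.139 to 0.0970) and Celf1 in the knockout (-0.161 to 0.0403). In the overexpressor interaction it held for Mbnl1 (-0.285 to 0.235), Celf2 (-0.148 to 0.0189), Rbfox2 (-0.0592 to 0.0775) and Ptbp1 (-0.209 to 0.126). None of these was called in the fit of all libraries.

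The replicate letters did not pair the libraries: deviations of same-letter libraries correlated at a median of -0.016 (range -0.358 to 0.264). Those of libraries with different letters had a median of 0.009 (range -0.315 to 0.446), and 0 of 18 libraries were closest to their own letter. With the letter as a block, 6, 5 and 7 of the genes were called in place of 7, 6 and 8. The comparisons were knockout against control myoblasts, knockout against control myotubes and the clones as myotubes. Without the block 53.0%, 68.0% and 59.7% of all genes were called there, and the shares with it are not given here. The calls lost were those of Celf1 (adjusted p = 0.0559), Ptbp2 (0.05065) and Mbnl2 (0.0539). The block turned Mbnl3 of the overexpressor myotubes (-0.0001) and the overexpressor interaction of Mbnl1 (-0.0111). Library totals moved the median of all genes in the control differentiation response from 0.070 to -0.168. Depth limits Rbfox1 in control myoblasts, at 8 to 16 counts.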
